A study of Mus musculus with 6 samples.

Results

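The genes that make, store, break down and sense histamine were followed in mouse bone marrow cells carrying the leukaemia fusion oncogene MLL-AF9, with Mn1 deleted (Mn1null) or intact (Mn1wt). The set holds 7 genes, namely Hdc, Slc18a2, Hnmt, Slc22a3, Hrh1, Hrh2 and Hrh4. All probe sets whose platform annotation names exactly 1 of them were taken, which gave 8 of 45037 probe sets and 6 of 18193 genes. No probe set of the annotation used names Slc22a3, a transporter that takes up histamine, and it was not analysed here. The genes were chosen with the Mn1null against Mn1wt difference already known, so their values are given as a description, with intervals. The limma calls of their probe sets are counted beside the share of all probe sets. They are counted again for the alternatives at the end, and nothing is read from them.

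The comparison is between 3 arrays of MLL-AF9/Mn1null cells, in which Mn1, a transcriptional cofactor gene, had been removed by CRISPR-Cas9, and 3 arrays of MLL-AF9/Mn1wt cells. Cells of both groups were sorted bone marrow cells, carried MLL-AF9, carried an EGFP control vector, and grew in serum with interleukin 3, interleukin 6 and stem cell factor, a cytokine mix that also supports mast cell growth. The number of clones, the age and strain of the animals and the way MLL-AF9 was introduced were not stated. Nothing in the labels ties replicates to different cultures or animals, so errors and p-values cover no more than how these arrays vary, and that variation may be technical.

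Histamine is made from the amino acid histidine in 1 step by histidine decarboxylase, the product of Hdc. The vesicular monoamine transporter encoded by Slc18a2 loads it into secretory granules, exchanging it for protons, and mast cells and basophils are the classic cells that hold such stores; immature myeloid cells also express Hdc. Inside cells histamine is inactivated by methylation through Hnmt, and outside them by the diamine oxidase Aoc1. It acts through G protein-coupled receptors, of which H1, H2 and H4 (Hrh1, Hrh2, Hrh4) are known from blood cells, while H3 (Hrh3) belongs mainly to neurons.

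The promoters of the 3 genes with the largest differences are shown as the sequence context of these genes. The sequences are RefSeq's, build GRCm38.p6, and run from 250 bases before to 50 bases after the annotated start, written 5′ to 3′ on the strand of the gene. The Hdc window lies at chr2:126618629-126618928 on the minus strand, the Slc18a2 window at chr19:59260628-59260927 on the plus strand, and the Hnmt window at chr2:24049330-24049629 on the minus strand. Capitals mark the motifs found.
Hdc: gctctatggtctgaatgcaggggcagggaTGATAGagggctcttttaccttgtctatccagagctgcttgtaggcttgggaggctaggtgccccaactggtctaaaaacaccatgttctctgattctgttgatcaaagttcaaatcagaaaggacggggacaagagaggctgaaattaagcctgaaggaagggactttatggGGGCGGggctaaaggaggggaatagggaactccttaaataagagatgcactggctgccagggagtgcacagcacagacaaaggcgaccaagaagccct
Slc18a2: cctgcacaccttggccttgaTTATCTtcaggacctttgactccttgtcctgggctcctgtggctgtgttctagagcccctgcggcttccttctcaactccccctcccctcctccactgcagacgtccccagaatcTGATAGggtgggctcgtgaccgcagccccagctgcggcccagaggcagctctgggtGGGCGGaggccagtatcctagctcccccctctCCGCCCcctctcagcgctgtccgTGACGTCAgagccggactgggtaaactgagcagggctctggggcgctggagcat
Hnmt: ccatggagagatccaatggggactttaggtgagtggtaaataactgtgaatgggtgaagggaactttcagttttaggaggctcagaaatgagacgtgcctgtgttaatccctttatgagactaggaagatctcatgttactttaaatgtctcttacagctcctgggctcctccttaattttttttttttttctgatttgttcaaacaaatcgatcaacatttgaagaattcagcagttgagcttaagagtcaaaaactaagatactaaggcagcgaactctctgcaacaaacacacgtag

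Motifs of 5 kinds were searched on both strands, and those found do not overlap in these windows. They were a GATA site (AGATAA or AGATAG, or either with T in place of the first A), a GC box (GGGCGG), a cyclic AMP response element (TGACGTCA), an E-box of the kind MITF binds (CACGTG or CATGTG) and a STAT site (TTCNNNGAA). The Hdc window held a GATA site 221 bases and a GC box 48 bases before the start. The Slc18a2 window held GATA sites 230 and 115 bases before the start, GC boxes at 59 and 27 bases, and a cyclic AMP response element at 4 bases. In the Hnmt window, which is poorer in G and C (39.3%, against 50.7% for Hdc and 64% for Slc18a2), no match to any of these letters was found. Such matches were not limited to genes with large differences: of 4 Hrh1 windows 3 held a GATA site, 2 held GC boxes and 1 an E-box, and both Hrh2 windows held a GC box. The Hrh2 windows overlap almost fully and hold the same GC box. The Hrh1 windows with GC boxes also overlap and share some of them. The Slc22a3 window, like that of Hnmt, held no match, and no window was available for Hrh4. Among all 32851 promoter windows of this length, 29.8% held such a GATA site, 35.7% a GC box, 1.79% the cyclic AMP response element, 20.4% the E-box and 8.30% the STAT site. A match describes letters in the window only.

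Signals are RMA values on the log2 scale, so a difference of 1 is a doubling, and a group near the lower end of the scale compresses a difference. The level below which 30% of all probe sets lie, 4.07, is used here as a mark of low signal. Array medians lay between 5.17 and 5.23. Arrays of 1 group correlated at 0.997 to 0.998 over all probe sets, and arrays of different groups at 0.981 to 0.983. Mn1 itself, read by 1 probe set whose place relative to the deleted part is not given, had 4.21, 4.12 and 4.07 in Mn1null and 4.49, 4.12 and 4.44 in Mn1wt, a difference of -0.22 (95% interval -0.46 to 0.027) with a limma adjusted p of 0.182, or 0.0214 without Mn1wt replicate 2, so it checks nothing about the labels. Bacterial labelling control transcripts also differed between the groups. Their 5′ probe sets averaged 6.42 to 6.53 on the Mn1null arrays and 7.21 to 7.41 on the Mn1wt arrays, a difference of -0.85. For their middle and 3′ probe sets the difference was -0.49 and -0.30. The part of these controls in the results below was not tested.

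Histamine synthesis and storage transcripts were both far higher in Mn1null cells, and the transcript of the intracellular breakdown enzyme was far lower. The first of the 2 Hdc probe sets (1451796_s_at) read 11.17, 11.08 and 11.14 on the Mn1null arrays, against 6.57, 6.75 and 6.57 on the Mn1wt arrays. All Mn1null arrays were high, and the lowest of them lay 4.33 above the highest Mn1wt array. The means were 11.13 ± 0.043 in Mn1null and 6.63 ± 0.11 in Mn1wt (SD, n = 3 each), a difference of 4.50 (95% interval 4.33 to 4.67) or 22.7-fold.

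The second Hdc probe set (1454713_s_at) read 11.71, 11.71 and 11.73 in Mn1null and 7.20, 6.95 and 7.31 in Mn1wt. The groups were again separate, with a difference of 4.56 (95% interval 4.34 to 4.79), and the intervals of the 2 probe sets overlap. In Mn1wt cells, too, both probe sets lay well above the low-signal mark of 4.07. Both probe sets belong to a class that can also read related transcripts. The 2 gave differences of like size, but both could read the same related transcript, so this does not settle what was read. Among all probe sets, 19 and 18 had a larger positive difference. In RNA from a mixed population, more cells that express a gene and more RNA per cell cannot be told apart, which holds for every result here.

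Slc18a2, which encodes the transporter that fills granules with histamine, serotonin and other amines, read 11.09, 11.07 and 11.08 in Mn1null, against 7.15, 7.13 and 7.47 in Mn1wt (1437079_at). The Mn1null arrays were high and nearly equal, whereas Mn1wt replicate 3 lay above the other two of its group, still 3.59 below the lowest Mn1null array. The means were 11.08 ± 0.011 in Mn1null and 7.25 ± 0.19 in Mn1wt (SD, n = 3 each). The difference was 3.83 (95% interval 3.60 to 4.05), or 14.2-fold, and 26 probe sets of all those measured had a larger positive one.

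Hnmt, the methyltransferase that inactivates histamine inside cells, went the other way. It read 4.37, 4.32 and 4.14 in Mn1null, against 8.24, 8.13 and 8.31 in Mn1wt (1417702_a_at, a design that reads several transcripts of the gene). The groups were 3.76 apart at their nearest arrays. The means were 4.28 ± 0.12 in Mn1null and 8.23 ± 0.091 in Mn1wt (SD, n = 3 each), a difference of -3.95 (95% interval -4.15 to -3.75), or 15.5-fold lower. The Mn1null mean lay just above the low-signal mark of 4.07, so this difference may be compressed, and 28 probe sets had a larger negative one.

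**Figure D1:**
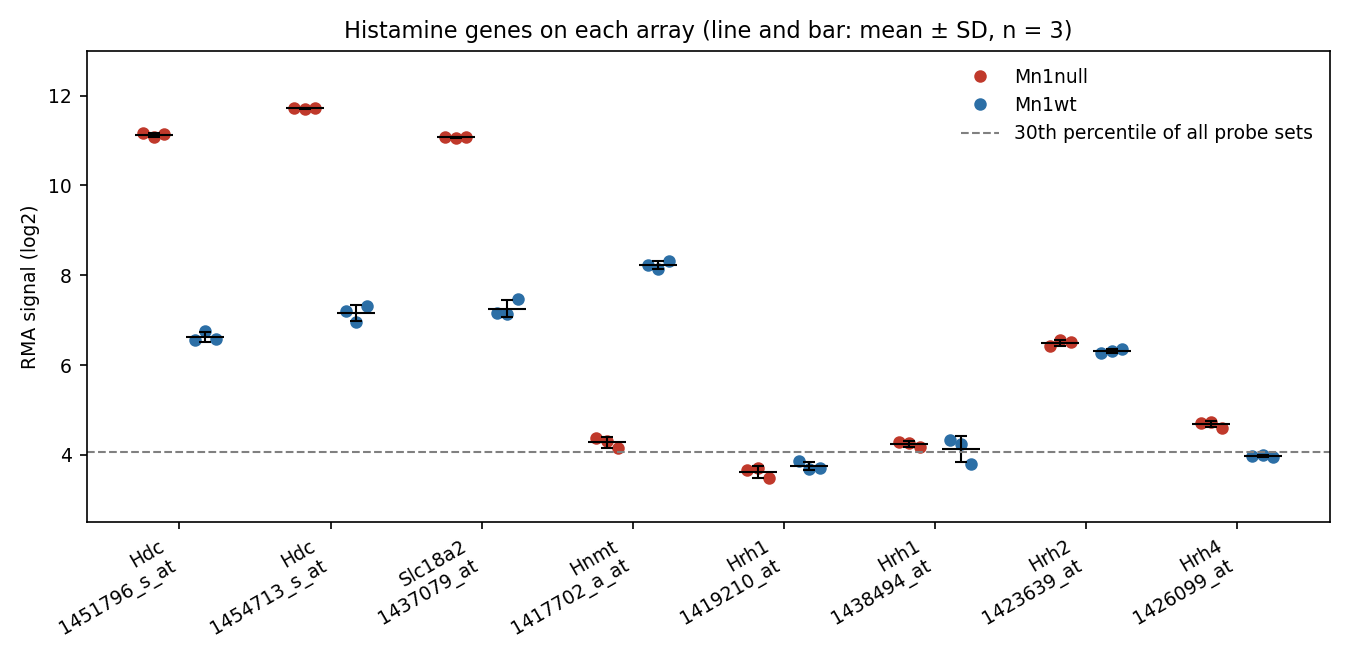
RMA signal (log2) of the 8 histamine probe sets, with a point for each array, Mn1null at left and Mn1wt at right of each pair, bars for mean ± SD (n = 3) and a dashed line at 4.07, the 30th percentile of all probe sets. Both Hdc probe sets and Slc18a2 lie above 11 in Mn1null and below 7.5 in Mn1wt, Hnmt is lower in Mn1null, and the receptors lie below 7 with small differences.

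The receptor genes showed much smaller differences. Hrh4, the Gi-coupled receptor known for the movement of mast cells and eosinophils toward histamine, read 4.70, 4.73 and 4.61 in Mn1null and 3.97, 3.99 and 3.95 in Mn1wt (1426099_at). All Mn1null arrays were higher, by at least 0.62, and the difference was 0.71 (95% interval 0.57 to 0.85). The Mn1null mean of 4.68 lay a little above the low-signal mark, and the Mn1wt mean of 3.97 under it.

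Hrh2, the Gs-coupled receptor that raises cyclic AMP, read 6.43, 6.55 and 6.51 in Mn1null and 6.28, 6.30 and 6.36 in Mn1wt (1423639_at). The groups did not overlap, but the nearest arrays were only 0.063 apart and the difference was 0.18 (95% interval 0.033 to 0.33). Its signal was above the low-signal mark on every array.

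Hrh1, the Gq-coupled receptor of itch and vessel leakage, had a signal near or under the low-signal mark in both groups. Its first probe set (1419210_at) read 3.67, 3.70 and 3.47 in Mn1null and 3.85, 3.68 and 3.70 in Mn1wt, overlapping, with a difference of -0.13 (95% interval -0.33 to 0.068). The second (1438494_at) read 4.29, 4.27 and 4.17 in Mn1null and 4.33, 4.24 and 3.79 in Mn1wt, also overlapping, with a difference of 0.12 (95% interval -0.20 to 0.44) that became -0.044 without Mn1wt replicate 3. The 2 probe sets thus gave opposite signs, both with intervals that include 0.

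**Figure D2:**
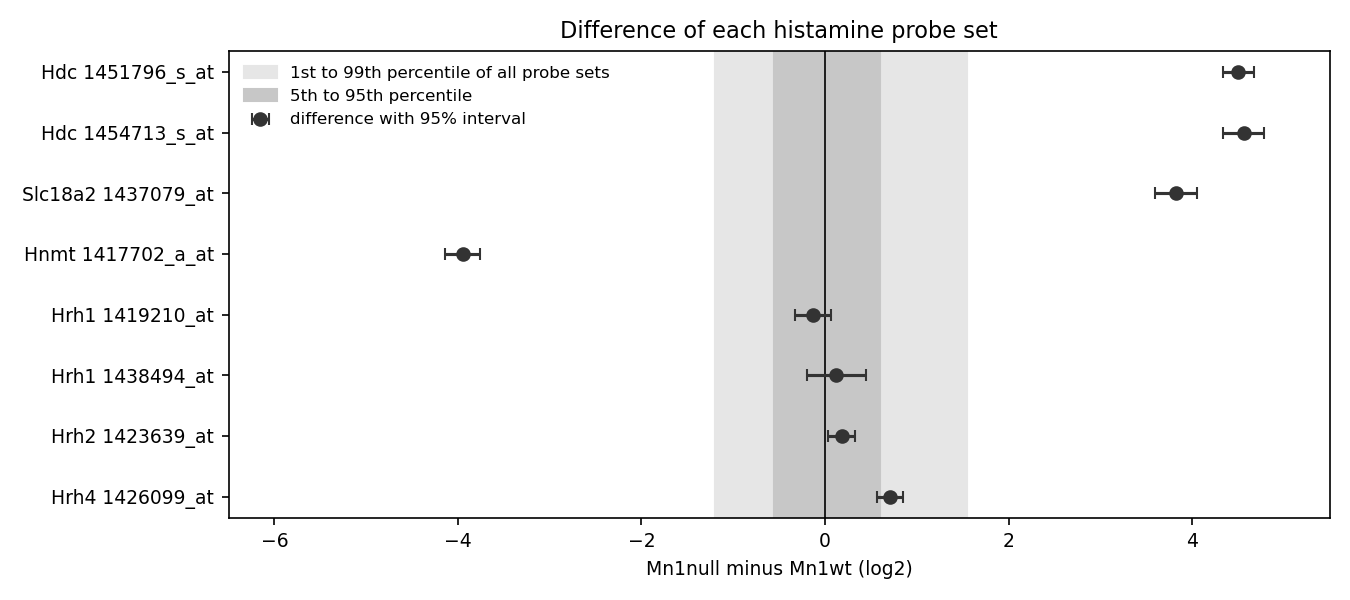
Difference of mean log2 signal, Mn1null minus Mn1wt, for each histamine probe set with its 95% interval from the limma fit; shaded bands give the 1st to 99th (-1.20 to 1.54) and 5th to 95th percentile of the differences of all 45037 probe sets. Hdc, Slc18a2 and Hnmt lie outside the wider band and the receptors inside it.

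In the limma fit across all probe sets, 4 of the 8 lay past an adjusted p of 0.05 as higher in Mn1null (both of Hdc, Slc18a2 and Hrh4), where 13.2% of all probe sets did, and 1 as lower (Hnmt), where 14.7% did. The groups did not overlap for 6 of the 8 probe sets, where 41.1% of all were separate. A difference of at least 3 in either direction was reached by 4 of the 8, where 0.364% of all reached it. Since the genes were chosen with this comparison known, these shares describe the choice and support nothing.

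Genes that followed the same pattern over the 6 arrays were found by the root mean square distance between values, each gene centred on its own mean. Nearest to Hdc was Cyp11a1, the enzyme that starts steroid synthesis, at a distance of 0.068 and a difference of 4.69, although 2 other Cyp11a1 probe sets differed by only 0.145 and 0.84. Scin (distance 0.148, difference 4.33), which encodes the actin-severing protein scinderin, Gdf10 (0.155 and 4.75) and Akr1c12 (0.176 and 4.83) came next. Nearest to Slc18a2 were Poli, a translesion DNA polymerase gene (0.061 and 3.81), Perp (0.086 and 3.75), Rnase4 (0.107 and 3.66) and Acss1 (0.119 and 3.61, with -0.049 and 0.476 on 2 other probe sets).

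Nearest to Hnmt were Ms4a6d (distance 0.109, difference -3.79, with -3.38 and 0.040 on 2 other probe sets), Tctex1d1 (0.119 and -3.75), the costimulatory receptor gene Cd28 (0.136 and -3.78) and Cnn3, an actin-binding calponin gene (0.149 and -3.86). In the alternatives where they differed least, Cd28 had -3.27 and Cnn3 had -2.79. With 2 groups of 3 arrays such a likeness says little more than that the group differences are of the same size.

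The neighbours of Hdc, Slc18a2 and Hnmt had much smaller differences than these genes. Of the 4 nearest protein-coding genes of Hdc in the RefSeq table, chosen by position, Atp8b4 and Usp8 rose by 0.58 and 0.27 and Gabpb1 fell by 0.34, none by more than 0.58, while Slc27a2 had -0.19 and did not pass limma's test. The calls of Usp8 and Gabpb1 were not shared by their other probe sets (-0.055 and -0.018). Of the 4 nearest to Slc18a2, 3 were measured, the largest absolute difference was 0.17, and none passed limma's test. Of the 4 nearest to Hnmt, 3 were measured and the largest absolute difference was 0.093, again with none past the test. At an unadjusted p under 0.05, 1 of the 3 Slc18a2 neighbours and 0 of the 3 Hnmt neighbours passed in limma. Beside the receptors this did not hold. Atg7 rose by 0.60 and Vgll4 fell by 0.36 next to Hrh1, and Thoc3 fell by 0.36 next to Hrh2, each more than the receptor gene itself differed. Next to Hrh4, whose own difference was 0.71, Impact rose by 0.44 and Osbpl1a fell by 0.26.

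Most other genes of histamine breakdown, uptake and reception did not pass the test. Of 12 measured, each gene read by its brightest probe set, 3 rose (25%), 1 fell (8.33%) and 8 did not pass, where 16.7% of all genes rose and 18% fell, and the median difference was -0.0072 (0.00013 over all genes). Aoc1, the diamine oxidase, had 5.15 ± 0.087 in Mn1null and 5.19 ± 0.10 in Mn1wt (SD, n = 3 each), with a limma adjusted p of 0.783. Hrh3 had 5.55 ± 0.098 in Mn1null and 5.45 ± 0.17 in Mn1wt, with an adjusted p of 0.554.

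The genes of this list that passed encode oxidising enzymes that can act on histamine products. Maoa, a monoamine oxidase gene, had 9.90, 9.93 and 9.88 in Mn1null and 9.45, 9.54 and 9.54 in Mn1wt, without overlap. It rose by 0.39 ± 0.059 (SE, limma adjusted p = 0.00191), and its other probe set gave 0.168 and did not pass. Maob rose by 0.27 at means of 3.35 in Mn1null and 3.08 in Mn1wt, both under the low-signal mark, a call lost when any of 5 arrays was left out. Aldh2, an aldehyde dehydrogenase gene, rose by 0.68 ± 0.058 (adjusted p = 0.00012), with -0.034 to 0.249 on its 4 other probe sets. Aldh3b1 fell by 0.32, a call lost without any 1 of 5 arrays.

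Of 16 genes measured that supply histidine or compete for it, 2 rose (12.5%, against 16.7% of all genes), 3 fell (18.8%, against 18%) and 11 missed the threshold. These shares are near those of all genes, and the median was -0.0188. Slc7a8, a neutral amino acid transporter gene whose substrates include histidine, had 9.29, 9.33 and 9.51 in Mn1null and 7.09, 7.20 and 7.42 in Mn1wt. The groups were far apart, and it rose by 2.14 ± 0.10 (SE, limma adjusted p = 6.59e-06). Slc3a2, its shared heavy chain, rose by 0.26, a call lost without any 1 of 4 arrays.

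Slc7a5, another light chain that pairs with Slc3a2, was singled out after its values were seen and had -0.16, short of the threshold. Slc15a4, an endolysosomal transporter of histidine and peptides, fell by 0.67 ± 0.061 (SE, limma adjusted p = 0.000157), and Hars, the histidyl-tRNA synthetase gene, by 0.65 ± 0.066 (adjusted p = 0.000287). Hal, whose product histidase degrades histidine, had 3.84 in Mn1null and 3.85 in Mn1wt, both under the low-signal mark.

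Of 6 genes for the cofactors of Hdc and Hnmt, 2 fell (33.3%, where 18% of all genes fell) and 4 did not pass (median -0.0842). Ahcy, which clears the product left after methyl transfer, fell by 0.36 ± 0.058 (SE, limma adjusted p = 0.00267) and its relative Ahcyl2 by 0.47 ± 0.076 (adjusted p = 0.00276), with -0.41 to 0.21 on 2 other Ahcyl2 probe sets that did not pass. Pdxk, the kinase that makes the pyridoxal phosphate Hdc needs, gave -0.085 without a call on its highest probe set but -1.15 and -0.88, both past the threshold, on 2 others; it was singled out after its values were seen.

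Slc18a2 also carries serotonin and catecholamines. Of 9 genes of their synthesis and uptake, 8 did not pass limma's test and Tph2 fell by 0.91 (11.1% of the list, where 18% of all genes fell), with a Mn1null mean of 3.20 under the low-signal mark. Tph1, the tryptophan hydroxylase of mast cells, had 4.03 ± 0.21 in Mn1null and 3.89 ± 0.14 in Mn1wt (SD, n = 3 each) and did not pass (adjusted p = 0.457). Both Tph1 means were under the low-signal mark.

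The vacuolar proton pump, which builds the acid gradient that Slc18a2 spends, had more genes that rose than fell. Of 16 genes measured, 10 rose (62.5%, where 16.7% of all genes rose), 2 fell (12.5%, where 18% did) and 4 missed the threshold; the median was 0.27. Leaving out any 1 array left 8 to 9 that rose and 1 that fell. Atp6v0a1, a membrane subunit gene, had 8.48, 8.49 and 8.64 in Mn1null and 6.78, 6.73 and 6.82 in Mn1wt, and rose by 1.76 ± 0.069 (SE, limma adjusted p = 2.43e-06), with 0.018 to 1.13 on 3 other probe sets. Atp6v0d1 rose by 0.98 ± 0.060 (adjusted p = 2.39e-05). Among the smaller rises, Atp6v0a2 (0.23) and Atp6ap1 (0.21) each lost the call when any of 5 arrays was left out, and the mean of the Atp6v0a2 probe sets gave -0.029. Atp6v1c1 fell by 0.30, and Atp6v1h fell by 0.20, a call lost when any of the 6 arrays was left out. With probe sets designed for 1 transcript only, an alternative chosen after seeing the data that measures fewer of these genes, 4 rose.

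Of 21 signalling genes measured downstream of the histamine receptors, 5 rose (23.8%, where 16.7% of all genes rose), 2 fell (9.52%, where 18% fell) and 14 did not pass (median 0.031). Gnaq, the G protein alpha subunit that H1 couples to, had 6.53, 6.63 and 6.56 in Mn1null and 8.60, 8.61 and 8.67 in Mn1wt. All Mn1null arrays were low, and it fell by 2.05 ± 0.061 (SE, limma adjusted p = 7.01e-07), with -2.01 to -0.37 on 6 other probe sets, of which 5 passed. Itpr2, a calcium release channel gene, rose by 1.45 ± 0.12, with -0.126 to 0.62 on 5 others, and Adcy9, an adenylyl cyclase gene, rose by 0.75 ± 0.083. Plcb3, a phospholipase C that Gq activates, fell by 0.22, a call lost when any of the 6 arrays was left out.

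**Figure D3:**
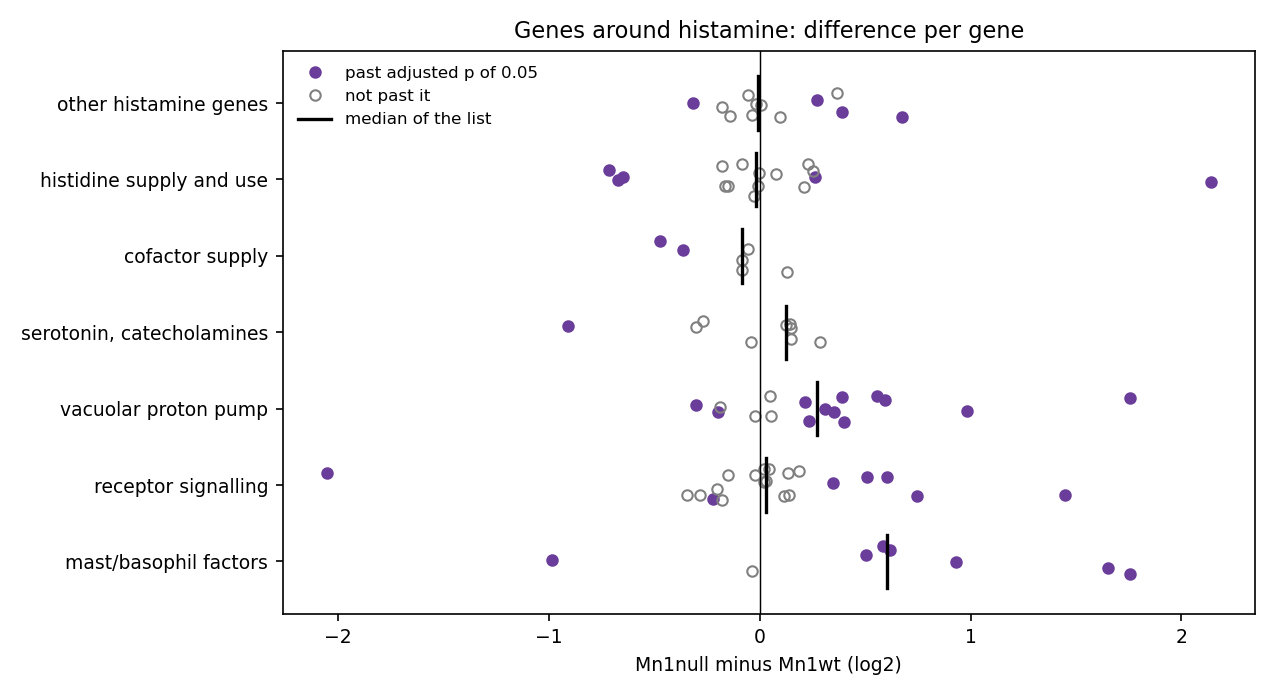
Difference of mean log2 signal, Mn1null minus Mn1wt, for each measured gene of the 7 lists around histamine; filled points passed an adjusted p of 0.05 in limma, open points did not, and black lines are list medians. The proton pump (median 0.27) and the mast cell and basophil factors (median 0.60) lie to the right, the other lists around 0.

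Transcription factors of mast cells and basophils, the lineages in which Hdc is best known, included 6 of 8 that rose (75%, where 16.7% of all genes rose), 1 that fell (12.5%, where 18% fell) and 1 that did not pass (median 0.60). Gata2, which is needed for mast cell identity, had 11.26, 11.17 and 11.33 in Mn1null and 9.63, 9.56 and 9.61 in Mn1wt, and rose by 1.65 ± 0.066 (SE, limma adjusted p = 2.62e-06). Gata1 rose by 1.76 ± 0.081 (adjusted p = 5.72e-06). The others that rose were Cebpa (0.93), Stat5a (0.62), Stat5b (0.59) and Runx1 (0.50). A place in this list does not mean that a factor is particular to these lineages. Mitf had 7.27 ± 0.056 in Mn1null and 7.31 ± 0.12 in Mn1wt (SD, n = 3 each) and did not pass (adjusted p = 0.786), and Zeb2 fell by 0.99 ± 0.11 (SE), with -0.95 to -0.073 on 4 other probe sets, of which 2 passed, and -0.59 as the mean of all of them.

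Markers of cell types that hold histamine differed in the same arrays. Their counts stand against 16.7% of all genes that rose and 18% that fell. Of 9 mast cell markers measured, 4 rose (44.4%) and 5 did not pass, the median difference was 0.067, and the mean level of the list lay between 6.61 and 6.63 on the Mn1null arrays and between 5.73 and 5.84 on the Mn1wt arrays. The shift of the mean rests on Cpa3, Ms4a2 and Fcer1a. Cpa3, the mast cell carboxypeptidase, had 12.33, 12.31 and 12.32 in Mn1null and 8.20, 8.14 and 8.23 in Mn1wt. Ms4a2 and Fcer1a, the beta and alpha chains of the IgE receptor, rose by 2.37 ± 0.078 and 1.27 ± 0.088 (SE), and Mcpt4 rose by 0.26 at means under the low-signal mark (3.80 in Mn1null, 3.54 in Mn1wt), a call lost when any 1 array was left out.

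The other protease genes of the mast cell list differed by little, but Tpsab1 and Cma1 lay only a little above the low-signal mark, where a difference may be compressed. Tpsab1 had 4.41 in Mn1null and 4.34 in Mn1wt, Tpsb2 had 4.98 in Mn1null and 5.07 in Mn1wt, and Cma1 had 4.22 in Mn1null and 4.37 in Mn1wt, all short of limma's threshold. Kit, the receptor for stem cell factor, had 10.27 in Mn1null and 10.44 in Mn1wt. Of 6 basophil markers, 5 rose (83.3%), with list means of 8.20 to 8.25 in Mn1null and 6.48 to 6.61 in Mn1wt. These 5 include Ms4a2 and Fcer1a, which are also in the mast cell list, so the counts of these lists are not separate. Cd200r3 rose by 4.06 ± 0.098 (SE, 2.07 on another probe set), and Mcpt8, a basophil protease gene, had 11.75 in Mn1null and 11.20 in Mn1wt and rose by 0.55 ± 0.062.

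Other myeloid markers moved as well. Of 6 neutrophil markers 5 rose (83.3%, where 16.7% of all genes rose) and 1 fell, with list means of 8.53 to 8.58 in Mn1null and 7.91 to 7.96 in Mn1wt: Ngp rose by 3.28 ± 0.12 and S100a9 by 2.21 ± 0.061 (SE), while Mmp8 fell by 4.53 ± 0.13. Of 4 eosinophil markers 3 rose (75%), with list means of 6.78 to 6.90 in Mn1null and 5.07 to 5.16 in Mn1wt. Prg2 rose by 3.51 and Epx by 2.63, while Ccr3 had 3.09 in Mn1null and 3.08 in Mn1wt and did not pass. Of 4 monocyte and macrophage markers 3 fell (75%, where 18% of all genes fell) and 1, Adgre1, rose by 1.11. List means were 6.40 to 6.49 in Mn1null and 8.76 to 8.94 in Mn1wt. F13a1 fell by 5.69, and Ccr2 by 3.60, with -2.71 to -0.46 on 3 other probe sets and -2.06 as the mean of all of them. The part of these cell types in the histamine differences was not tested.

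Haematopoietic progenitor and myeloid markers, which fit the labelled tissue, lay far above the low-signal mark in both groups. Ptprc had 11.57 in Mn1null and 11.54 in Mn1wt, Mpo had 14.11 in Mn1null and 13.84 in Mn1wt, and Cd34 had 11.83 in Mn1null and 11.04 in Mn1wt. Of 6 such markers 3 rose (50%, where 16.7% of all genes rose), among them Itgam by 0.84. Of 5 megakaryocyte markers 2 rose (Itga2b by 3.62 and Gp9 by 1.03) and 2 fell (Ppbp by 1.07 and Pf4 by 0.98). The remaining one, Gp1bb, had 0.22 and did not pass, but it had -0.97 in the alternative where it was lowest. Of 4 erythroid markers 2 rose (Klf1 by 1.07 and Epor by 0.43) and 1 fell (Hba-a2 by 0.79). Of 3 B cell and 3 T and NK cell markers, 0 passed limma's test (also 0 at an unadjusted p under 0.05). Of 6 stromal and endothelial markers only Pecam1, which haematopoietic cells also express, rose.

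**Figure D4:**
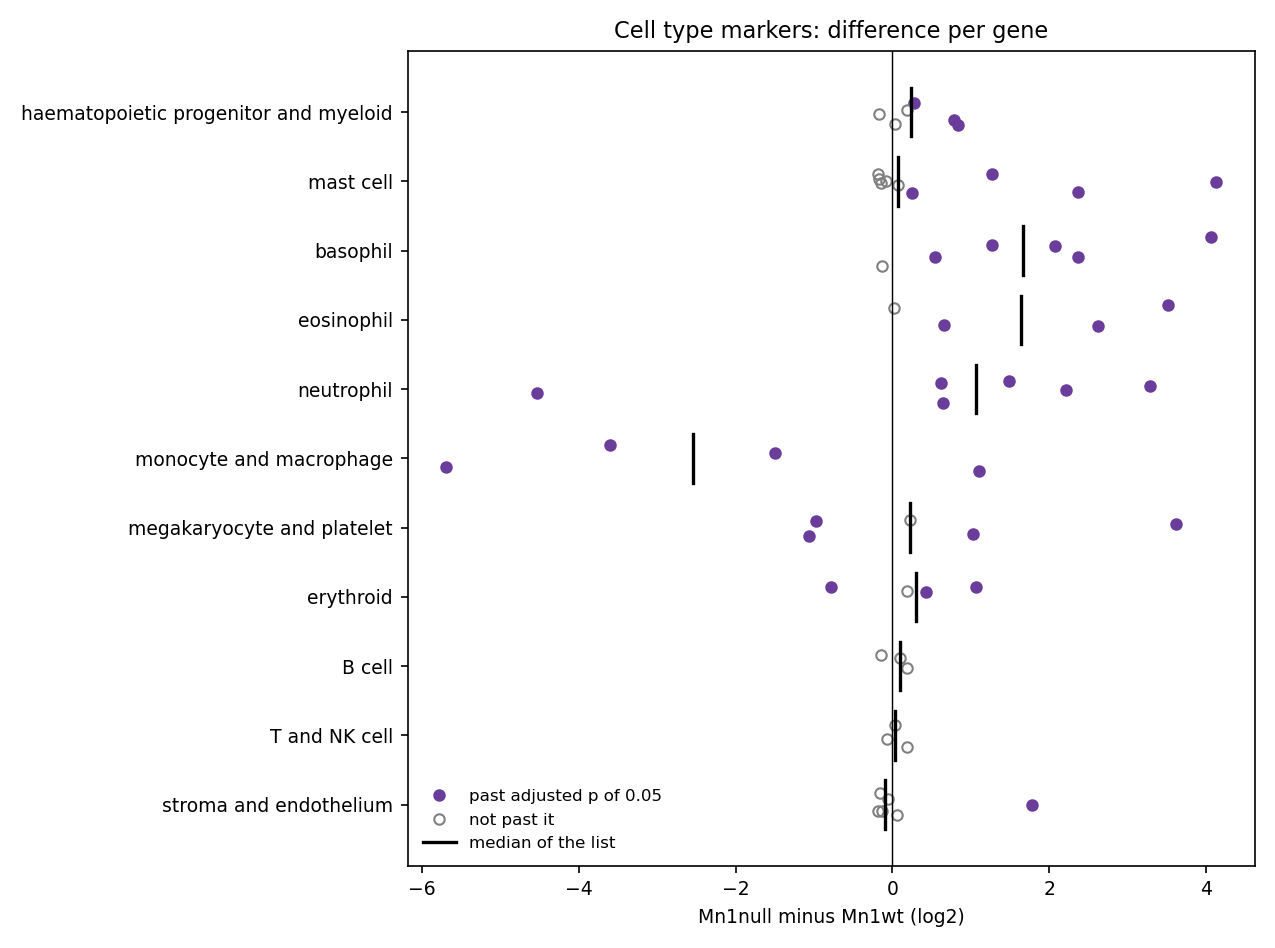
Difference of mean log2 signal, Mn1null minus Mn1wt, for each measured marker gene by cell type; filled points passed an adjusted p of 0.05 in limma, open points did not, and black lines are list medians. Basophil (median 1.67), eosinophil (1.64) and neutrophil (1.07) markers lie mostly to the right, monocyte and macrophage markers (-2.55) mostly to the left, mast cell markers are split (median 0.067), and lymphoid markers near 0.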

How the data were processed

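The deposited table holds log2 values of the authors, which per the submitters' processing notes come from RMA, a method that corrects background, equalises array distributions by quantiles and combines the probes of a probe set. Its version and any filter were not stated. Of 45101 probe sets, 64 controls stayed out of tests. In the platform annotation 34945 of the rest named 1 gene, 932 several, and 9160 were not listed. The 3 Mn1null arrays were compared with the 3 Mn1wt arrays per probe set, with no filter, using limma 3.58.1 (lmFit, eBayes) under R 4.3.3, 2-sided, with Benjamini-Hochberg adjustment over all 45037 probe sets and a threshold of 0.05. Every adjusted p comes from this fit, and the number of arrays limits its precision. A listed gene was represented by its probe set of highest mean, and list genes without a probe set were not analysed here. The script was tested on simulated data. The members and lists were chosen with earlier results of these data known. The genes named were the members, Mn1, Cpa3, Fcer1a, Ms4a2, Mcpt8, Gata2, Mitf, Tph1, Maoa, Maob, Aoc1 and Hrh3, those of each list with the smallest p (at most 2 in a direction, 3 for mast cells and basophils), and the 4 nearest in pattern to each member that differed by at least 1. Other genes named are list members, chosen after their values were seen, or neighbours by position. Alternatives covered normalization, filters, summaries per gene, the variance model, weights, a replicate block, a stricter threshold (0.01) and leaving out each array.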

Additional observations from a re-analysis of the deposited data

How the results depend on the processing

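The differences of Hdc, Slc18a2, Hnmt and Hrh4 kept their sign in every alternative in which they were measured, with 4.46 to 4.64 for the probe sets of Hdc, 3.76 to 3.94 for Slc18a2, -4.00 to -3.88 for Hnmt and 0.68 to 0.75 for Hrh4. So did that of Hrh2 (0.139 to 0.22), which passed the threshold in 4 of its 17 alternatives. With a filter at the 30th percentile 5 histamine probe sets were higher and 1 lower. Of all probe sets kept by that filter, 6098 were higher and 7003 lower. Over all probe sets 5926 were higher and 6602 lower, against 3413 and 3757 with 1 filtered probe set per gene and 3224 and 3435 with the mean per gene, which test fewer features. An alternative with only probe sets designed for 1 transcript was chosen after seeing the data. It tests fewer probe sets, of which 4083 were higher and 4343 lower. Among them 2 histamine probe sets (Slc18a2 and Hrh4) were higher and 0 lower (0 also at an unadjusted p), since Hdc and Hnmt have no such probe set. This alternative also measures fewer list genes, of which 14 rose, against 26 in the main fit. With an intensity trend and robust variances 19 list genes fell, against 12; the cause was not tested. Atp6v0a2 changed sign with the mean of its probe sets (-0.029). Leaving out 1 array gave 4922 to 5267 higher and 5521 to 5742 lower probe sets, 4 to 4 and 1 to 1 histamine probe sets, and 23 to 24 rising and 8 to 10 falling list genes. Same-numbered replicates did not deviate together (correlations -0.036, 0.078 and 0.023). Such correlations cannot show whether same-numbered arrays share a culture, animal or day, so any pairing stays unknown. With the replicate block 5293 were higher and 5903 lower, with 4 and 1 among the histamine probe sets.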
